A study of Arabidopsis thaliana with 33 samples.

Results

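Wild-type Arabidopsis thaliana (accession Col-0) hypocotyl explants in continuous low light were compared after 4 days on shoot-inducing medium (SIM) and after the 4 days on callus-inducing medium (CIM) that preceded it. The SIM group holds 3 libraries and the CIM group 3, picked by their labels out of the 33 RNA-seq libraries of the series, with no measured value used in the choice. SIM explants had spent 4 days on CIM, 0.5 mg/L of the auxin 2,4-D with 0.1 mg/L of the cytokinin kinetin, and then 4 days on 0.15 mg/L of the auxin IAA with 0.5 mg/L of the cytokinin 2-iPA, while CIM explants had spent only the first 4 days. Both groups were unmutated Col-0 with no transgene named in the labels, taken from 7-day-old seedlings and held at 22 °C under 2 µmol/m2/s of light. Excised explants are pieces of a whole organ, so each library averages vasculature, endodermis, cortex, epidermis and the callus that forms inside. Medium and 4 added days of culture go together in this design and cannot be told apart. The wider study asked how light signalling through the transcription factor HY5 acts in regeneration, and its Col-0 explants in high light (40 µmol/m2/s) are used below as the nearest like comparison.

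Shoot regeneration in Arabidopsis tissue culture runs through a callus that arises from pericycle-like cells next to the vascular strands. An auxin-rich medium starts a programme shared with lateral roots, carried by LBD transcription factors and by root-tip genes of the PLETHORA and WOX families. A cytokinin-rich medium then allows shoot meristems to form in that callus, under WUSCHEL, the CUC boundary genes and the KNOX homeobox genes. Cytokinin is read by histidine kinase receptors, passed on by phosphotransfer proteins to type-B response regulators, and these switch on the type-A response regulators, which damp the signal. Values below are given for 31 lists of genes with such known roles, 523 loci in all, of which 480 passed a filter on low counts set across all 33 libraries.

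Counted reads came to 8.18, 14.35 and 14.89 M in the SIM libraries and 8.25, 10.34 and 12.87 M in the CIM libraries, within the 7.24 to 21.18 M of the series. Replicates of a group correlated across genes at r = 0.990 to 0.991 in SIM and 0.990 to 0.992 in CIM on the log2 scale, a description over genes that are not independent. Levels are CPM, counts scaled to a common library size, with trimmed mean of M values (TMM) factors. Libraries of SIM differed among themselves along certain lists. SIM replicate 3 was the highest of its group in 21 of 21 root hair wall genes and 12 of 16 cutin and wax genes, and SIM replicate 2 in 18 of 19 secondary wall genes and 20 of 22 antenna genes, beside 5803 and 7692 of 20610 genes overall. Without SIM replicate 3, 19 root hair wall genes still passed as higher and 11 cutin and wax genes as lower, and without SIM replicate 2, 14 secondary wall genes still passed as higher, the counts found with all 6 libraries.

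**Figure D1:**
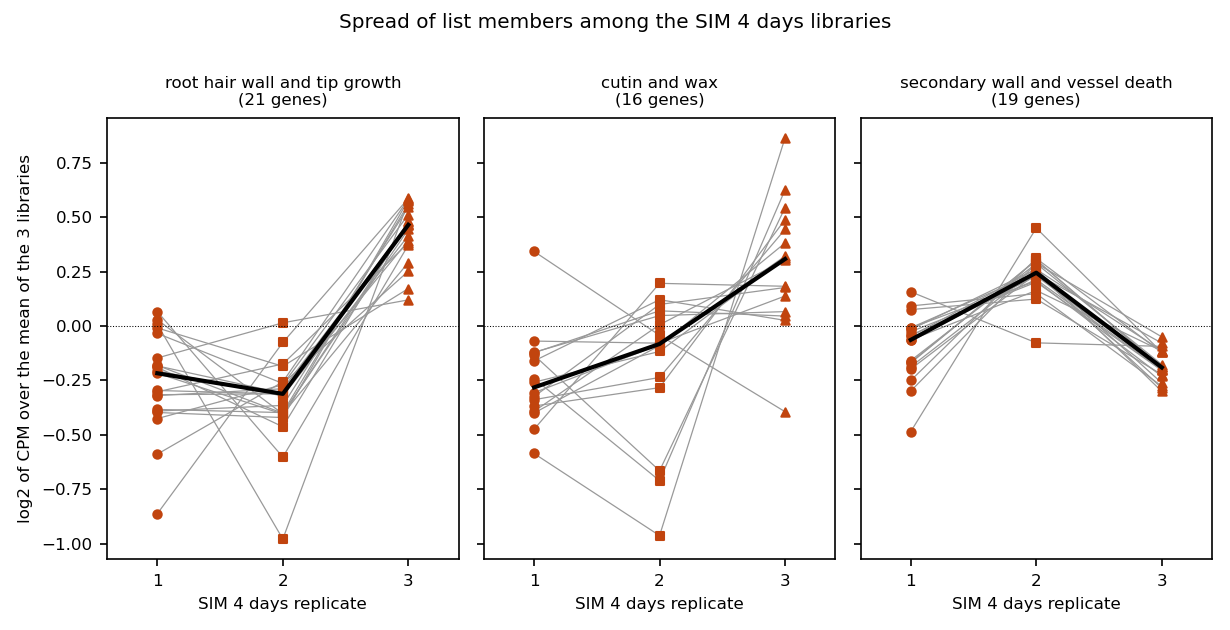
Each line is a gene of a list, and its points give the log2 of its CPM in SIM replicates 1, 2 and 3 over the mean of the 3; the black line is the median of the list. Root hair wall genes have a median of 0.46 in replicate 3 and secondary wall genes a median of 0.24 in replicate 2.

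Of 20842 genes tested, 9143 (43.9%) passed at an adjusted p under 0.05 in edgeR's quasi-likelihood test. Higher at SIM were 4487 (21.5%) and lower 4656 (22.3%), and at least 2-fold changes made up 1502 (7.21%) and 1643 (7.88%). All 3 SIM libraries lay above all 3 CIM libraries in 25.4% of genes and below them in 26.3%. The median log2 fold change (SIM over CIM, here and throughout) over all genes was -0.005. The count of members called in a list is to be read against these shares. The lists and their members were chosen with earlier results of these data known, so an excess over these shares is a description and not independent evidence. In bulk tissue, fewer cells of a type and less RNA per cell cannot be told apart. Gene lists differed widely around that median, from 8.61 for root hair wall genes down to -2.29 for cutin and wax genes.

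**Figure D2:**
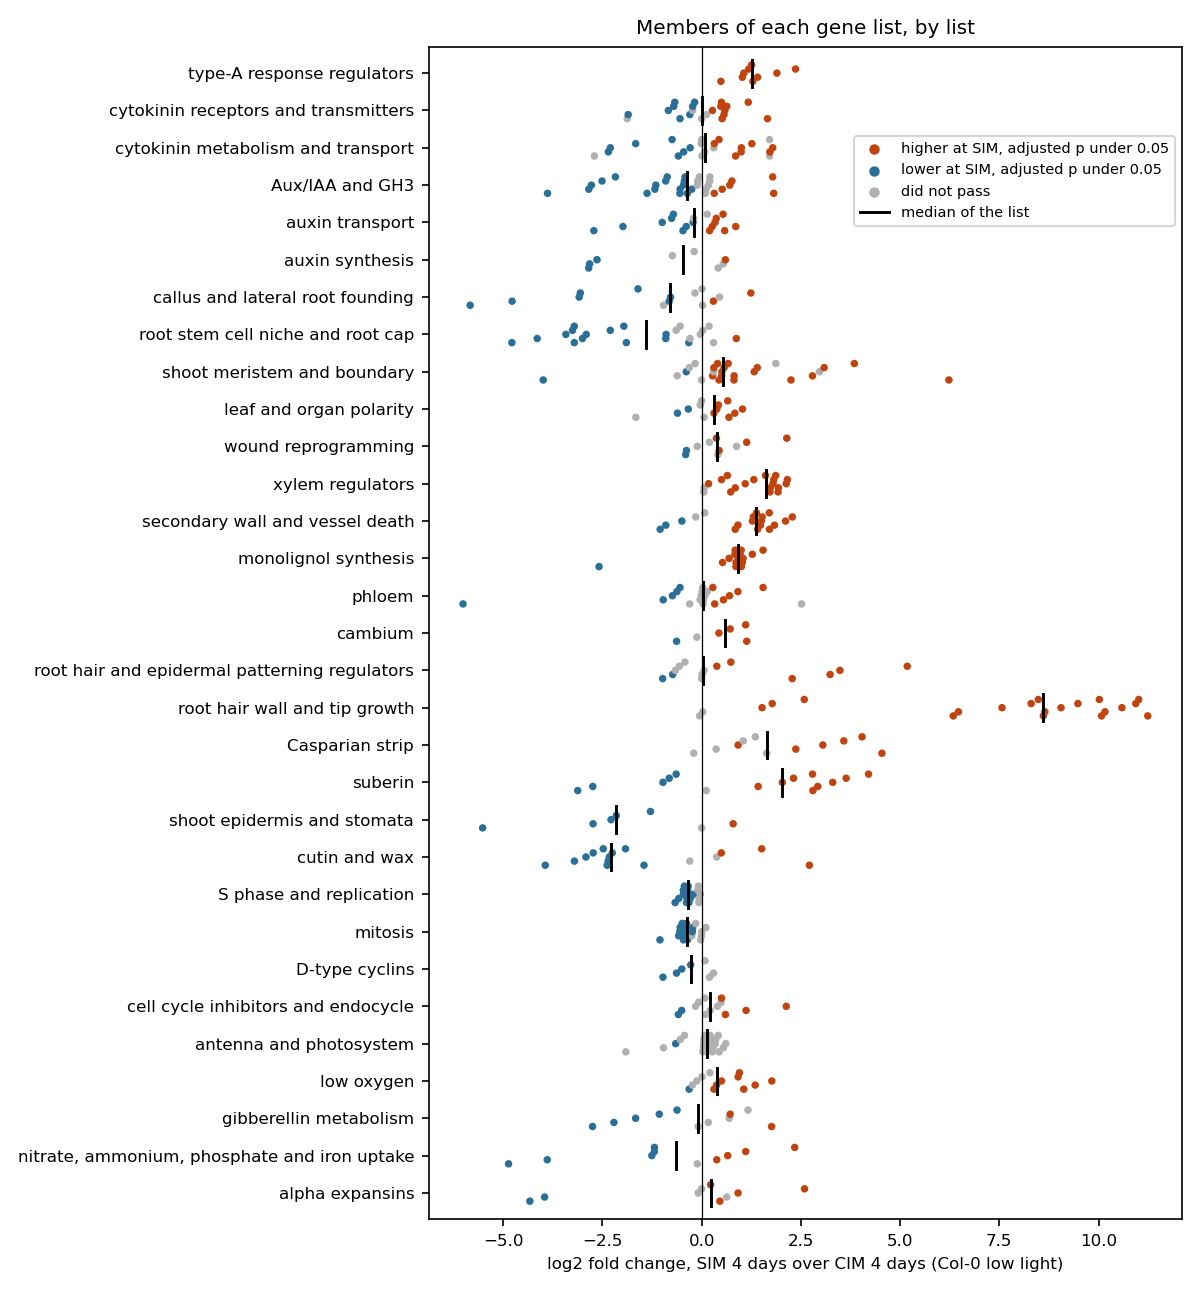
Every tested member of the 31 lists is a point at its log2 fold change, SIM 4 days over CIM 4 days, coloured by whether it passed at an adjusted p under 0.05; black bars are list medians. Type-A response regulators and xylem regulators have no member that passed as lower, S phase and mitosis genes none that passed as higher, and most root hair wall genes lie above 5 log2 units, where fitted values of genes with almost no CIM count are not bounds.

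Type-A response regulators, which damp cytokinin signalling and are its usual readout, rose as a whole list. All 9 tested members passed as higher, beside 21.5% of all genes, with a median of 1.26. Summed over the list, the level was 957, 947 and 959 CPM in SIM libraries and 452, 482 and 452 CPM in CIM libraries. ARR15 moved the most, with 59.7, 56.2 and 56.8 CPM in SIM libraries, against 12.4, 11.4 and 10 CPM in CIM libraries (log2 fold change 2.37 ± 0.105 SE, adjusted p = 9.55e-19). Its lowest SIM library was far above its highest CIM library. ARR7 had 119, 103 and 108 CPM in SIM libraries and 29.7, 30.3 and 28.7 CPM in CIM libraries (1.90 ± 0.097, adjusted p = 3.96e-17). ARR5 stood at 157, 150 and 156 CPM on SIM, against 65.9, 64.5 and 59.4 CPM on CIM (1.29 ± 0.065, adjusted p = 1.65e-17). The 3 replicates of each of these genes lay close together and the groups were well apart. The smallest rise was that of ARR4, 239, 271 and 253 CPM in SIM libraries against 167, 193 and 185 CPM in CIM libraries (0.48 ± 0.086, adjusted p = 1.79e-05). ARR3, ARR6, ARR8, ARR9 and ARR16 rose by 1.03 to 1.41 on the log2 scale. ARR17 was below the filter, with 0.232, 0.201 and 0.387 CPM on SIM and no count on CIM. Across the low-light course, ARR15 averaged 0.886 CPM before culture, 11.3 CPM at CIM 4 days, 57.6 CPM at SIM 4 days and 70.8 CPM at SIM 8 days.

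Promoters of ARR7 and ARR15 are shown because these genes had the largest rises of the list. They differ in AGATCT and AGATTT, forms of the letters that type-B regulators are known to bind. The 250 bases before the RefSeq gene start are printed in the direction of the gene (TAIR10.1, both on the minus strand; ARR7 at chr1:6579315-6579564 and ARR15 at chr1:28133026-28133275), with AGATCT and AGATTT, on either strand, in capitals.
ARR7: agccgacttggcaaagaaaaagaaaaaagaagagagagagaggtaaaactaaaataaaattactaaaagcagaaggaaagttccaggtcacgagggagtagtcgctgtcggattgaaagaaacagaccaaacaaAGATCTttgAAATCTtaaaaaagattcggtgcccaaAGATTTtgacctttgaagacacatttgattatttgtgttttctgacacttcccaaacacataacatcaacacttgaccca
ARR15: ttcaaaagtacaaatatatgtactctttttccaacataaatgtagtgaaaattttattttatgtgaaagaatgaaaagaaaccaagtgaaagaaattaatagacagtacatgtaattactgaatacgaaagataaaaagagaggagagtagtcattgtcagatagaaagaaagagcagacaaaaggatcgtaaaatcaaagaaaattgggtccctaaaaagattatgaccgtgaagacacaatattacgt
ARR7 holds 3 matches to these forms and ARR15 none in these bases, and shorter forms were not searched. In windows of 300 bases, 250 before the start and 50 after it, AGATTT was found in 7 of 10 type-A genes (70%), beside 38.8% of 27443 promoters, and AGATCT in 1 of 10 (10%), beside 7.38%. ARR15, the gene that rose the most, is thus among the members without either form in this window. The counted intervals of ARR7 and ARR15 end at positions 6579178 and 28132710, both short of their RefSeq starts. Of the bases between, only the 50 after each RefSeq start were searched.

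Cytokinin receptors and the steps below them split by member, with 9 of 21 tested members higher and 8 lower (median 0.00). Among the receptors, WOL, also called AHK4 or CRE1, rose most, at 190, 190 and 202 CPM in SIM libraries and 83.4, 86.7 and 88.0 CPM in CIM libraries (1.17 ± 0.056, adjusted p = 5.03e-18). AHK2 rose by 0.27 and AHK3 did not pass (0.12, adjusted p = 0.119). The phosphotransfer genes AHP1, AHP2, AHP3 and AHP5 rose by 0.52 to 0.63. Of type-B regulators, which carry the signal to DNA, ARR14 rose the most, with 7.99, 8.59 and 8.57 CPM on SIM against 2.1, 2.86 and 2.89 CPM on CIM (1.66 ± 0.156, adjusted p = 9.15e-11). ARR12 rose by 0.48, while ARR1, ARR2, ARR10 and ARR11 fell by 0.18 to 0.84. CRF2, an AP2-type cytokinin response factor that auxin also induces, fell to 17.8, 15.1 and 19.3 CPM on SIM, against 58.3, 63.7 and 65.7 CPM on CIM (-1.85 ± 0.108, adjusted p = 7.64e-16). Without CIM replicate 2 only 4 members of this list passed as lower.

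Of 6 tested genes for cytokinin oxidases, which break the hormone down, 4 rose and 1 fell, and of 6 tested LOG genes, which activate it, 4 fell. CKX1 had 99.3, 90.9 and 99.0 CPM on SIM and 32.1, 24.8 and 30.9 CPM on CIM (1.72 ± 0.111, adjusted p = 2.62e-14), and CKX3 743, 652 and 664 CPM on SIM and 372, 309 and 352 CPM on CIM (0.99 ± 0.149, adjusted p = 5.61e-06). CKX7 rose by 1.00 and CKX4 by 0.85 (adjusted p = 0.0466), and CKX5, whose interval overlaps a neighbour's, fell by 0.29. The exporter gene ABCG14 had 169, 204 and 201 CPM on SIM against 56.0, 54.5 and 55.8 CPM on CIM (1.79 ± 0.097, adjusted p = 1.51e-16). All 3 SIM values of CKX1, CKX3 and ABCG14 lay above all 3 CIM values. LOG genes encode the enzyme that frees active cytokinin from its nucleotide. LOG4, LOG5 and LOG8 fell by 0.74, 2.30 and 0.45. LOG3 fell to 13, 12.6 and 11.3 CPM on SIM, against 40.3, 38.0 and 37.7 CPM on CIM (-1.66 ± 0.128, adjusted p = 9.15e-13), and LOG7 did not pass (0.07, adjusted p = 0.817). Of the IPT genes for cytokinin synthesis, IPT1 rose by 1.26, IPT5 and IPT9 fell by 2.35 and 0.59, and IPT2 did not pass. In all 8 members of the 23 tested rose and 7 fell.

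Auxin-response genes mostly fell after the move off 2,4-D. Of 31 tested Aux/IAA and GH3 genes, 17 passed as lower and 6 as higher (median -0.36). GH3 enzymes join auxin to amino acids. GH3.1 fell to 12.5, 11.1 and 13.9 CPM on SIM, against 74.6, 102 and 93.1 CPM on CIM (-2.84 ± 0.158, adjusted p = 7.60e-15), and GH3.5 to 112, 124 and 153 CPM against 523, 614 and 619 CPM (-2.17 ± 0.157, adjusted p = 1.01e-11). GH3.2, GH3.3, GH3.6 and GH3.17 fell by 0.46 to 1.16. No SIM library of GH3.1 or GH3.5 reached the lowest CIM library. Aux/IAA genes encode repressors of auxin response. IAA7 fell to 9.04, 9.80 and 8.83 CPM on SIM, against 58.9, 71.3 and 60.1 CPM on CIM (-2.78 ± 0.161, adjusted p = 2.35e-14), and IAA14, a repressor of lateral root founding, to 5.45, 6.18 and 5.87 CPM against 31.6, 35.7 and 33.1 CPM (-2.51 ± 0.124, adjusted p = 1.18e-17). IAA19 fell to 73.9, 60.3 and 66.9 CPM on SIM, against 129, 117 and 120 CPM on CIM (-0.87 ± 0.125, adjusted p = 1.32e-06). Other repressors went the other way. IAA17 rose to 188, 190 and 223 CPM on SIM, against 59.9, 58.7 and 55.5 CPM on CIM (1.79 ± 0.086, adjusted p = 5.03e-18), and IAA28 to 41.8, 38.9 and 46.0 CPM against 12.3, 12.2 and 11.6 CPM (1.82 ± 0.122, adjusted p = 3.42e-14). IAA3, IAA12 and IAA16 rose by 0.52 to 0.76. With replicate number as a block over the compared libraries alone, 10 members passed as higher and 16 as lower.

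IAA19 is shown as a fallen gene whose promoter carries the auxin response letters TGTCTC (chr3:5263751-5264000, plus strand, TAIR10.1; TGTCTC and TGTCGG on either strand in capitals).
IAA19: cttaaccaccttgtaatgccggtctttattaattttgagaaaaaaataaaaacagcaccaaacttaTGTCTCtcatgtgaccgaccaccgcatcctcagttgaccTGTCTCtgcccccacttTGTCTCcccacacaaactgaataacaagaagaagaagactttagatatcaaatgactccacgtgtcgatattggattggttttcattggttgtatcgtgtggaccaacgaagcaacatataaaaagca
These bases hold 3 matches. TGTCTC was found in 14 of 34 Aux/IAA and GH3 windows (41.2%), beside 14.2% of all promoters, and TGTCGG in 6 (17.6%), beside 5.12%. Genes with a match went in both directions. TGTCTC was found in IAA28, which rose, and in GH3.1 and GH3.5, which fell, and TGTCGG in IAA12 and IAA16, which rose. IAA7 and IAA14, which fell, held neither form in this window.

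Auxin carriers moved in both directions, 7 of 17 higher and 8 lower. The efflux carrier gene PIN6 rose to 79.1, 81.4 and 70.5 CPM on SIM, against 42.7, 42.5 and 42.2 CPM on CIM (0.86 ± 0.103, adjusted p = 2.34e-08). The transporter gene ABCB4 fell by 0.99 and the influx carrier gene LAX3 by 1.98, while AUX1, LAX1 and LAX2 rose by 0.34 to 0.58. Among genes of auxin synthesis, YUC8 and TAA1 fell by 2.64 and 2.85 at levels under 4 CPM, and YUC6 rose to 18.3, 15.6 and 12.4 CPM on SIM against 11.2, 10.3 and 8.88 CPM on CIM (0.60 ± 0.152, adjusted p = 0.00148).

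Genes that found callus and lateral roots fell steeply in part of the list. Of 14 tested, 7 passed as lower and 2 as higher (median -0.80). PUCHI, an AP2 factor of lateral root primordia, had 0.463, 0.671 and 0.773 CPM in SIM libraries and 36.3, 42.1 and 37.0 CPM in CIM libraries (-5.83 ± 0.203, adjusted p = 1.30e-20). LBD29 had 0.811, 2.28 and 0.580 CPM on SIM and 26.4, 42.4 and 36.4 CPM on CIM (-4.78 ± 0.277, adjusted p = 5.25e-14). LBD16, another LBD gene that drives callus formation, had 3.59, 4.43 and 7.35 CPM on SIM and 39.3, 52.8 and 43.9 CPM on CIM (-3.09 ± 0.195, adjusted p = 9.02e-14). For these 3 genes even the highest SIM library lay under the lowest CIM library by a wide margin. LBD18 fell by 3.06, KCS1 by 1.60 and the receptor kinase gene ACR4 by 0.82. LBD33 fell by 0.78 at 1.16 to 2.01 CPM on SIM and lost its call without CIM replicate 1 (adjusted p = 0.0888), CIM replicate 2 (0.0754) or SIM replicate 1 (0.126), and with DESeq2 (0.0578). WOX11, which acts when roots form from wounded tissue, went the other way, at 213, 213 and 194 CPM on SIM against 96.9, 80.8 and 85.4 CPM on CIM (1.24 ± 0.165, adjusted p = 7.08e-07). ARF19, an auxin response factor, rose by 0.30, and its partner ARF7 did not pass (0.01, adjusted p = 0.932). ATXR2 and ALF4 did not pass either, LBD17 passed only without CIM replicate 1 (adjusted p = 0.0209), and WOX12 was below the filter. GATA23 missed the threshold (-0.96, adjusted p = 0.0578) but passed with replicate number as a block (-0.94, adjusted p = 0.0372), without CIM replicate 3 (0.0449) or without SIM replicate 1 (0.0392).

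Root-tip genes, which CIM callus is known to express, fell in 14 of 22 tested members, and 1 rose (median -1.4). Their summed level was 760, 717 and 793 CPM in SIM libraries and 1287.9, 1248.7 and 1314.3 CPM in CIM libraries. WOX5, the marker of the quiescent centre, had 1.16, 0.738 and 2.19 CPM on SIM and 38.6, 37.8 and 40.2 CPM on CIM (-4.78 ± 0.249, adjusted p = 6.27e-16). BBM, a PLETHORA-family gene, had 2.55, 1.21 and 5.80 CPM on SIM and 61.8, 52.6 and 61.3 CPM on CIM (-4.14 ± 0.296, adjusted p = 4.45e-11). PLT1 had 3.59, 2.22 and 9.15 CPM on SIM and 43.4, 48.7 and 52.2 CPM on CIM (-3.21 ± 0.345, adjusted p = 3.26e-08). In each of these 3 genes SIM replicate 3 was the highest of its group and still far below every CIM library. PLT2 fell by 3.25, WOX7 by 3.42, and AT5G48940 by 3.21. SCR, which with SHR patterns the ground tissue, fell to 8.92, 8.93 and 13.5 CPM on SIM, against 83.6, 82.5 and 89.3 CPM on CIM (-3 ± 0.132, adjusted p = 4.90e-18). SHR itself fell by 0.32, to 99.2, 97.1 and 90.4 CPM against 120, 119 and 119 CPM. The root cap genes SMB, FEZ and BRN1 fell by 1.90, 2.91 and 2.30, JKD by 1.96 and NTT by 0.90.

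Other AP2 genes of the PLETHORA group differed by member. PLT3 fell by 0.90, to 199, 194 and 214 CPM on SIM against 377, 376 and 383 CPM on CIM. PLT5 and PLT7, which act in pluripotency of callus, did not pass (0.19, adjusted p = 0.103, and 0.03, adjusted p = 0.879), and PLT5 passed with the replicate block over the compared libraries alone (0.20, adjusted p = 0.0237), without CIM replicate 1 (0.0474) or without SIM replicate 3 (0.0454). ANT, an AP2 gene of organ growth, was the member that rose, with 175, 165 and 155 CPM on SIM against 101, 84.1 and 85.5 CPM on CIM (0.87 ± 0.089, adjusted p = 5.81e-10). TPST, MGP, RGF3 and CYCD6;1 did not pass. AT3G24240 missed the threshold (-0.29, adjusted p = 0.0584) and passed over the compared libraries alone without the block (-0.28, adjusted p = 0.00886) and with it (3.25e-05), over cultured libraries only (0.0435), with DESeq2 (0.0335) and without SIM replicate 3 (0.0343), and the other 5 members were below the filter. Of the 22 tested genes 15 had their highest mean of the low-light course at CIM 4 days.

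Shoot meristem and boundary genes rose in 17 of 26 members and fell in 2 (median 0.54, or 0.51 with WUS at its bound). The summed level was 771, 809 and 798 CPM in SIM libraries and 603, 609 and 623 CPM in CIM libraries. WUS, which sets up the stem cell niche, had 0.463, 0.268 and 1.61 CPM on SIM and no count in the 3 CIM libraries, at least 9.07-fold higher against a floor of 3 counts over the group (adjusted p = 0.000445). Its level on SIM rested on 33 counts, most of them in replicate 3. CUC1 had 2.43, 2.68 and 2.90 CPM on SIM and 0.351, 0.859 and 0.456 CPM on CIM (2.25 ± 0.354, adjusted p = 2.71e-06). CUC2, its more abundant partner at organ boundaries, had 20.3, 18.8 and 22.9 CPM on SIM and 11.6, 10.1 and 13.4 CPM on CIM (0.81 ± 0.171, adjusted p = 0.000266). RAX1, a MYB gene of axillary meristems, had 5.33, 2.75 and 3.74 CPM on SIM and 0.584, 0.573 and 0.228 CPM on CIM (3.09 ± 0.454, adjusted p = 1.06e-06). ESR1, an AP2 gene that promotes shoot regeneration, had 5.56, 6.85 and 6.45 CPM on SIM and 2.57, 3.05 and 2.05 CPM on CIM (1.32 ± 0.236, adjusted p = 2.27e-05). The SIM and CIM libraries of these 5 genes did not overlap, and all but CUC2 stayed under 7 CPM.

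Most of the remaining rises in the shoot list were of under 1 log2 unit. HAM2, BAM1, BAM2, LSH3, KNAT2, KNAT6 and RPL rose by 0.31 to 0.82. ATH1 and LSH4 rose by 3.85 and 1.4 from levels under 0.7 CPM on CIM. CUC3 rose by 2.79 at 0.258 to 0.348 CPM on SIM, and lost its call without CIM replicate 2 (adjusted p = 0.0882) or CIM replicate 3 (0.121), and with DESeq2 (0.0509). CLV1, a receptor for the CLV3 peptide, rose by 0.40 and lost its call without SIM replicate 2 (adjusted p = 0.144) or CIM replicate 2 (0.151), and CLV2 rose by 0.28 and lost it without SIM replicate 3 (0.0726). STM, the KNOX gene that keeps meristem cells undivided into organs, stood at 0.579, 0.201 and 0.129 CPM on SIM and 0.234, 0.286 and 0.607 CPM on CIM and did not pass (adjusted p = 0.477). CLV3 had 0.348, 0.134 and 0.322 CPM on SIM and 0, 0.191 and 0 CPM on CIM (adjusted p = 0.118), and passed without CIM replicate 2 (0.0217). KNAT1, RAX2 and ESR2 did not pass. LAS, a GRAS gene of axillary meristems, missed the threshold (-0.31, adjusted p = 0.0685) and passed without CIM replicate 3 (-0.41, adjusted p = 0.0353). HAM1 missed it too (0.30, adjusted p = 0.0548) and passed with the replicate block (0.30, adjusted p = 0.00341), without CIM replicate 3 (0.0472) or without SIM replicate 1 (0.00784). PNF fell to 0.232, 0.403 and 0.193 CPM on SIM, against 4.44, 5.34 and 4.18 CPM on CIM (-3.99 ± 0.352, adjusted p = 2.12e-11). HAM3 fell by 0.39, a call lost without SIM replicate 2 (adjusted p = 0.0569) or CIM replicate 2 (0.107). In the low-light course 13 of the 26 had their highest mean at SIM 8 days, among them WUS (0, 0, 0.781 and 1.82 CPM at T0, CIM 4, SIM 4 and SIM 8 days).

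Of 13 tested genes for upper and lower organ faces, 7 rose and 2 fell. The HD-ZIP III gene PHV had 221, 255 and 229 CPM on SIM and 113, 122 and 111 CPM on CIM (1.03 ± 0.078, adjusted p = 7.04e-13), and ATHB-15 rose by 0.69. PHB, of the same family, fell by 0.34. The count of 2 that fell became 1 without CIM replicate 2, CIM replicate 3 or SIM replicate 2. YABBY genes of the lower leaf face were at or near 0, with no count of FIL, YAB2 or YAB5 in the 6 libraries.

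**Figure D3:**
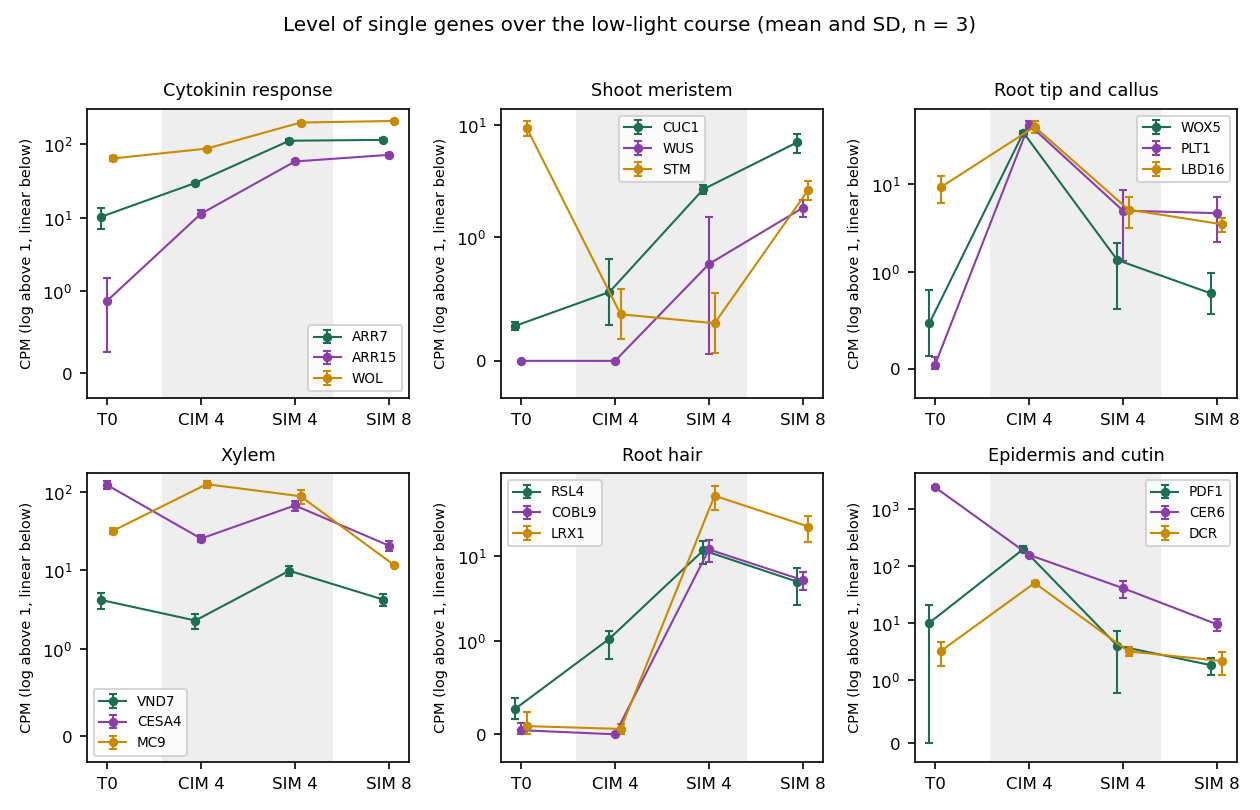
Mean CPM (SD, n = 3; lower bars stop at 0) of single genes in Col-0 low light before culture (T0), at CIM 4 days, SIM 4 days and SIM 8 days, on an axis that is logarithmic above 1 and linear below; grey marks the stages compared. WOX5 and PLT1 peak at CIM 4 days, LRX1 and COBL9 at SIM 4 days, and WUS is 0 until SIM 4 days.

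Xylem regulators rose almost throughout. Of 19 tested members 17 passed as higher, none as lower, and the median was 1.61. VND genes encode the NAC factors that turn cells into vessel elements. VND7 had 8.81, 11.3 and 9.54 CPM on SIM and 2.80, 1.81 and 2.28 CPM on CIM (2.13 ± 0.177, adjusted p = 5.40e-12), and VND6 had 6.60, 7.45 and 5.35 CPM on SIM and 1.64, 1.53 and 2.20 CPM on CIM (1.82 ± 0.216, adjusted p = 1.44e-08). VND1, VND2, VND3, VND4 and VND5 rose by 0.50 to 1.94. All 3 SIM libraries exceeded all 3 CIM libraries for VND6 and VND7. Their target MYB46, a switch for secondary walls, had 6.37, 10.2 and 6.19 CPM on SIM and 1.87, 1.81 and 2.51 CPM on CIM (1.86 ± 0.232, adjusted p = 3.67e-08), and MYB83 rose by 1.93. T5L1, a partner of LHW in vascular divisions, had 63.6, 53.7 and 55.3 CPM on SIM and 14.1, 11 and 13.4 CPM on CIM (2.16 ± 0.144, adjusted p = 2.01e-13). The fibre NAC genes NST1, NST2 and SND1 had at most 1 count among the 6 libraries. MYB58 and ACL5 did not pass.

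Genes of secondary walls and vessel death followed in 14 of 19 members, with 3 lower and a median of 1.38. The summed level was 1112.2, 1407.5 and 1040.5 CPM in SIM libraries and 637, 734 and 606 CPM in CIM libraries. CESA4, CESA7 and CESA8 encode the cellulose synthases of secondary walls. CESA4 had 64.1, 78.7 and 58.5 CPM on SIM and 25.8, 27.8 and 22.6 CPM on CIM (1.41 ± 0.142, adjusted p = 2.60e-09), and CESA7 and CESA8 rose by 1.28 and 1.48. The intervals of these 3 genes overlap a neighbour's, so some of their reads may be of another origin. XCP1, a protease of xylem vessels, had 201, 240 and 180 CPM on SIM and 67.2, 61.7 and 46.2 CPM on CIM (1.83 ± 0.121, adjusted p = 2.62e-13). LAC4, a laccase that polymerises lignin, had 55.6, 57.5 and 45.2 CPM on SIM and 9.35, 13.7 and 12.9 CPM on CIM (2.11 ± 0.167, adjusted p = 2.15e-11). Replicate 2 was the highest SIM library in most of this list, and each SIM library of these genes lay above each CIM library. IRX14 and FRA8, of xylan synthesis, did not pass.

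The 3 members that fell act in the death and clearing of cells, whereas XCP1, the vessel protease of the same list, rose as given above. MC9, a metacaspase, fell to 73.9, 109 and 80.8 CPM on SIM, against 110, 138 and 126 CPM on CIM (-0.50 ± 0.142, adjusted p = 0.00551), with its highest SIM library just under its lowest CIM library. RNS3, a ribonuclease, fell to 48.0, 91.8 and 61.8 CPM on SIM, against 127, 158 and 135 CPM on CIM (-1.04 ± 0.134, adjusted p = 2.55e-07). BFN1, a nuclease, fell to 20.7, 31.1 and 24.6 CPM on SIM, against 44.5, 52.4 and 47.7 CPM on CIM (-0.90 ± 0.105, adjusted p = 9.02e-09).

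Promoters of XCP1, CESA4 and MC9 are printed because they were the members whose windows hold the tracheary-element-regulating element (TERE), on either strand, in a list where XCP1 and CESA4 rose and MC9 fell. The 250 bases before each RefSeq gene start are given, all on the plus strand of TAIR10.1 (XCP1 chr4:16810232-16810481, CESA4 chr5:17714140-17714389, MC9 chr5:1153490-1153739), with the match in capitals.
XCP1: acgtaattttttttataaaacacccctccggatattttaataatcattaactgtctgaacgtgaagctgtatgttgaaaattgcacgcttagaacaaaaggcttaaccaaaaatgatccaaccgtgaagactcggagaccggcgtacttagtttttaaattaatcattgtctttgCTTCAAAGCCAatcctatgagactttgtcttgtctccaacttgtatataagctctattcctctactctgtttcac
CESA4: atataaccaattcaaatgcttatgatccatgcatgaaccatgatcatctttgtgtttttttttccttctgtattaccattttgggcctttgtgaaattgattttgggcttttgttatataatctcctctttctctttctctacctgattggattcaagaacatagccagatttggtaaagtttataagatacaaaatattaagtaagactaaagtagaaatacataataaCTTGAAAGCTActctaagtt
MC9: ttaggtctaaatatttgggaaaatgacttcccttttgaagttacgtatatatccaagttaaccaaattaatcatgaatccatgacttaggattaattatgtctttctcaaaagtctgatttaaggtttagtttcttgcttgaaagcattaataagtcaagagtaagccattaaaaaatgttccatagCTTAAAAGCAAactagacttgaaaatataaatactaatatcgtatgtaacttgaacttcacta
The element was found in 3 of 19 windows (15.8%), beside 0.448% of all promoters. Genes with the match thus went in both directions.

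Monolignol genes, for the building blocks of lignin, rose in 14 of 15 members and fell in 1 (median 0.92). CAD4 had 118, 106 and 109 CPM on SIM and 39.1, 35.3 and 39.3 CPM on CIM (1.55 ± 0.086, adjusted p = 2.59e-16). 4CL2 had 196, 203 and 192 CPM on SIM and 84.5, 84.5 and 75.3 CPM on CIM (1.28 ± 0.071, adjusted p = 2.14e-16). The rest of the rises were of 0.53 to 1.04, from CAD5 to OMT1. FAH1, the ferulate 5-hydroxylase that leads to syringyl units, was the exception, at 29.9, 30.9 and 32.6 CPM on SIM against 171, 199 and 192 CPM on CIM (-2.58 ± 0.114, adjusted p = 5.55e-18).

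Root hair wall genes showed the widest change of all lists. Of 21 members, 19 passed as higher and none as lower, and the median was 8.61, or 7.57 with the 6 members that had no CIM count at their bounds. The summed level was 575, 558 and 880 CPM in SIM libraries and 170, 172 and 169 CPM in CIM libraries. LRX1, a wall protein of growing hairs, had 45.9, 39.4 and 70.8 CPM on SIM and 0, 0.0954 and 0.0759 CPM on CIM (adjusted p = 1.63e-10). COBL9, needed for hair tip growth, had 10.4, 9.60 and 16 CPM on SIM and no count on CIM, at least 132-fold higher (adjusted p = 2.53e-12). RHD2, the NADPH oxidase of the hair tip, had 25.1, 21.4 and 30.6 CPM on SIM and 0.234, 0.382 and 0.228 CPM on CIM (6.47 ± 0.325, adjusted p = 7.79e-17). SIM replicate 3 was the highest in all 21 genes, and for these 3 the lowest SIM library was many times above the CIM libraries. The expansin gene EXPA18 had 16.6, 16.9 and 31.8 CPM on SIM and no count on CIM, at least 244-fold higher (adjusted p = 1.20e-06). RHS12, RHS15, RHS18 and XTH26 had no CIM count either and were at least 255-fold, 143-fold, 191-fold and 47.3-fold higher. PIP5K3, RHS10 and XTH14 were measurable on CIM and rose by 1.52 to 2.58. LRX2 and CSLD3 did not pass, with 118, 132 and 142 CPM of CSLD3 on SIM and 138, 133 and 135 CPM on CIM (-0.05, adjusted p = 0.582). XTH12 and XTH13 are close copies, and the treatment of reads that match both is not given in the sources used here. Of the 21 genes 18 had their highest mean of the low-light course at SIM 4 days.

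Regulators of hair growth rose while genes of epidermal patterning did not. RSL4, the bHLH factor that sets hair length, had 9.39, 9.93 and 15.9 CPM on SIM and 1.17, 0.763 and 1.21 CPM on CIM (3.48 ± 0.399, adjusted p = 2.84e-08). LRL3 had 8.92, 10.4 and 15.1 CPM on SIM and 0.467, 0.191 and 0.304 CPM on CIM (5.18 ± 0.461, adjusted p = 2.74e-10). RHD6, which acts before RSL4, had 15.3, 8.39 and 18.7 CPM on SIM and 1.64, 2.39 and 4.18 CPM on CIM (2.28 ± 0.306, adjusted p = 5.06e-07). In each of these the SIM libraries lay above the CIM libraries, although RHD6 spread more among SIM replicates. LRL1, LRL2 and AT5G43175 also rose, so that 6 of 14 tested members passed as higher. WER, GL2, CPC and TTG1, which choose hair or non-hair fate, did not pass. EGL3 and GL3, their bHLH partners, passed as lower, a count of 2 that became 4 without SIM replicate 3. GL3 lost its call without SIM replicate 2 (adjusted p = 0.284), CIM replicate 1 (0.0737) or CIM replicate 3 (0.0727), over the compared libraries alone (0.0887) and with DESeq2 (0.0574). With the replicate block the count was 5 over all libraries and 4 over those compared.

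**Figure D4:**
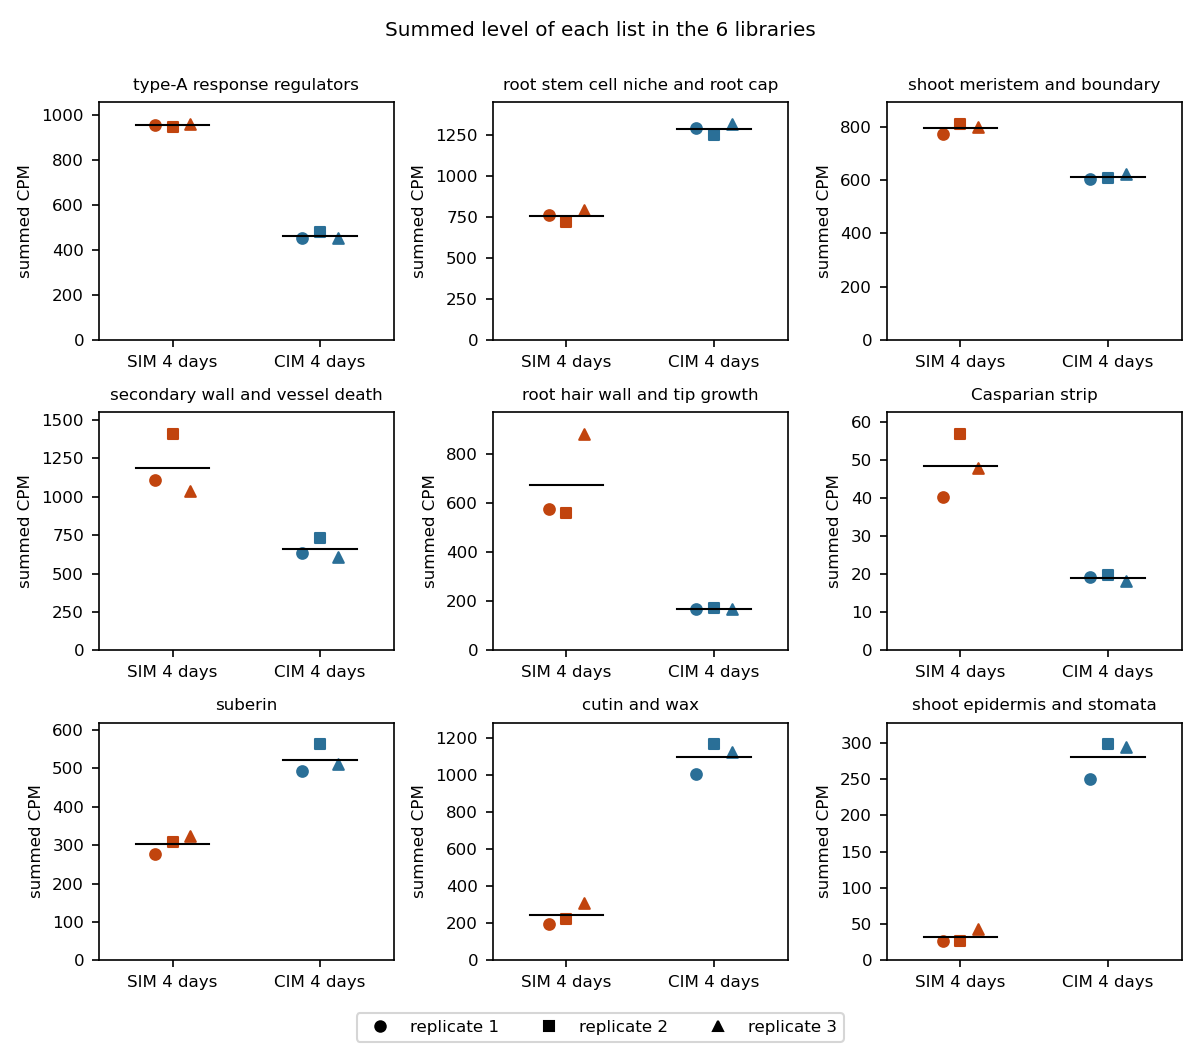
Summed CPM of 9 lists in each library, SIM 4 days left and CIM 4 days right, with markers for replicates 1, 2 and 3 and a line at the mean of 3. The 2 groups do not overlap in any of the 9 panels, and SIM replicate 3 is the highest SIM library for root hair wall, cutin and epidermis genes.

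Genes of endodermal barriers rose in part. Casparian strip genes passed as higher in 6 of 11 members and as lower in none (median 1.64). MYB36, the factor that starts the strip, had 7.07, 8.59 and 6.70 CPM on SIM and 0.234, 0.477 and 0.228 CPM on CIM (4.54 ± 0.275, adjusted p = 2.24e-15), and 21.2 CPM at T0. CASP1, a protein of the strip itself, had 2.55, 3.62 and 1.80 CPM on SIM and 0.584, 0.191 and 0.228 CPM on CIM (3.05 ± 0.494, adjusted p = 5.65e-06), and 71.1 CPM at T0. CASP4 and CASP5 did not pass at levels under 0.7 CPM. CASP1, ESB1, PER64 and GSO1, which rose, have intervals that overlap a neighbour's. All 11 had their highest mean at T0.

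Suberin genes split into 9 of 15 that rose and 5 that fell (median 2.03). MYB92, a suberin regulator, had 10.5, 10 and 12.5 CPM on SIM and 0.701, 0.477 and 0.607 CPM on CIM (4.2 ± 0.273, adjusted p = 1.19e-14), with an interval that overlaps a neighbour's. CYP86A1, a fatty acid hydroxylase of root suberin, had 22.4, 30.9 and 25.9 CPM on SIM and 3.62, 5.15 and 2.81 CPM on CIM (2.80 ± 0.288, adjusted p = 7.24e-09). CYP86B1, GPAT5 and ASFT, further steps of suberin synthesis, rose by 3.64, 2.79 and 2.03. The 5 members that fell act in fatty alcohol formation, chain elongation and export, although FAR5 and ABCG6, of the same families, rose by 1.42 and 3.3. FAR1 fell to 11.7, 12.2 and 18.0 CPM on SIM, against 119, 128 and 125 CPM on CIM (-3.12 ± 0.149, adjusted p = 2.36e-16). KCS2 fell to 16, 20.0 and 22.5 CPM on SIM, against 131, 141 and 127 CPM on CIM (-2.74 ± 0.099, adjusted p = 5.27e-21). KCS20, ABCG2 and FAR4 fell by 0.82, 0.97 and 0.64, and the intervals of KCS2 and ABCG2 overlap a neighbour's. The list's summed level was lower on SIM, 278, 309 and 323 CPM against 494, 563 and 511 CPM on CIM, the opposite sign to its median.

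Cutin and wax genes, for the surface of the shoot, fell in 11 of 16 members and rose in 3 (median -2.29). Their summed level was 198, 222 and 308 CPM in SIM libraries and 1009, 1167.8 and 1124.7 CPM in CIM libraries. DCR, an acyltransferase of cutin, fell to 2.55, 3.42 and 3.61 CPM on SIM, against 54.5, 46.7 and 50.9 CPM on CIM (-3.94 ± 0.168, adjusted p = 5.32e-19). CER5, a wax exporter, fell to 13.6, 15 and 20.2 CPM on SIM, against 83.3, 87.4 and 83.0 CPM on CIM (-2.35 ± 0.11, adjusted p = 5.97e-18). GPAT4 and GPAT8 fell by 2.48 and 2.91, whereas GPAT6, of the same family, rose to 10.5, 12 and 11.8 CPM on SIM, against 3.86, 4.2 and 4.02 CPM on CIM (1.51 ± 0.148, adjusted p = 2.41e-10). The epidermal homeobox genes ATML1, PDF2 and HDG2 fell by 2.28, 2.74 and 2.15. PDF1, their target in the outer layer, fell to 1.85, 2.48 and 7.73 CPM on SIM, against 175, 219 and 207 CPM on CIM (-5.52 ± 0.381, adjusted p = 1.72e-11). In DCR, CER5 and PDF1 too SIM replicate 3 was the highest of its group and lay far below the CIM libraries. Stomatal genes were near absent in both groups, with EPF1, EPF2 and STOMAGEN at 0 counts and SPCH, MUTE, TMM, BASL and POLAR below the filter. FAMA fell by 1.29 and SCRM rose by 0.79.

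DNA replication and mitosis genes fell by small amounts. S phase genes passed as lower in 13 of 18 and as higher in none (median -0.34), and mitosis genes as lower in 13 of 19 and as higher in none (median -0.38). Their summed levels were 1132.0, 1051.9 and 1102.0 CPM on SIM against 1388.8, 1315.4 and 1370.6 CPM on CIM for S phase. For mitosis they were 731, 694 and 701 CPM on SIM against 873, 881 and 902 CPM on CIM. MCM2, a subunit of the replicative helicase, had 97.3, 83.0 and 90.9 CPM on SIM and 119, 105 and 113 CPM on CIM (-0.32 ± 0.059, adjusted p = 3.56e-05). CYCB2;1, a mitotic cyclin, had 8.69, 7.11 and 9.73 CPM on SIM and 16.5, 17.8 and 18.4 CPM on CIM (-1.05 ± 0.118, adjusted p = 4.31e-09), the largest fall of both lists. CYCB1;2 had 46.6, 41.4 and 45.8 CPM on SIM and 53.3, 59.4 and 66.3 CPM on CIM (-0.43 ± 0.071, adjusted p = 6.59e-06). The SIM libraries of all 3 lay below the CIM libraries, by less than 1 log2 unit for MCM2 and CYCB1;2. The inhibitor gene KRP2 rose to 22.0, 21.4 and 19.1 CPM on SIM, against 5.14, 4.49 and 4.63 CPM on CIM (2.13 ± 0.157, adjusted p = 3.16e-13), and KRP7 rose by 1.12 while KRP3 fell by 0.59. CYCD3;1, the D-type cyclin known to respond to cytokinin, did not pass (0.09, adjusted p = 0.259), and CYCD3;2 and CYCD3;3 fell by 0.63 and 0.97. In the low-light course 15 of 18 S phase genes and 13 of 19 mitosis genes had their highest mean at CIM 4 days.

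MCM2 and CYCB1;2 are shown for the letters that E2F factors (TTTCCCGC, TTTGGCGC) and mitotic MYB3R factors (AACGG) are known to bind, in capitals on either strand (TAIR10.1, MCM2 chr1:16969964-16970213 on the plus strand, CYCB1;2 chr5:1861704-1861953 on the minus strand).
MCM2: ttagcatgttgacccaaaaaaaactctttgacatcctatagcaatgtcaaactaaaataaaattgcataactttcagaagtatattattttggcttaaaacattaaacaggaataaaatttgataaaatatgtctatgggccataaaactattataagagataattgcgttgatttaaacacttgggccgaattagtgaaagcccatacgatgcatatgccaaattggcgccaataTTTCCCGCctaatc
CYCB1;2: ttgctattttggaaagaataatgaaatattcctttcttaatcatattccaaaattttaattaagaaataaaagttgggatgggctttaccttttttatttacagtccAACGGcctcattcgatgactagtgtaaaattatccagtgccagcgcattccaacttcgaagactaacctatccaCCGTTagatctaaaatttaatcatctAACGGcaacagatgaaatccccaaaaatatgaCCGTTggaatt
TTTCCCGC was found in 6 of 18 S phase windows (33.3%), beside 0.798% of all promoters, and TTTGGCGC in 3 (16.7%), beside 0.434%. AACGG was found in 13 of 19 mitosis windows (68.4%), beside 24.7%. A match describes the letters of the window, not a bound site.

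Vascular stem cell and phloem genes differed by member. Of 6 cambium genes 4 rose and 1 fell. WOX4, which keeps the cambium dividing, had 101, 87.9 and 79.3 CPM on SIM and 47.8, 38.7 and 38.0 CPM on CIM (1.11 ± 0.122, adjusted p = 7.99e-09). CLE41 and CLE44 encode the same peptide signal to the cambium and went opposite ways, by 1.14 and -0.63. Among 21 phloem genes 6 rose (28.6%) and 5 fell (23.8%), near the 21.5% and 22.3% of all genes, and the median was 0.04. SUC2, the sucrose loader of companion cells, rose to 155, 197 and 201 CPM on SIM, against 55.5, 72.4 and 61.5 CPM on CIM (1.55 ± 0.163, adjusted p = 1.41e-08). OPS, an early phloem gene, rose by 0.91, whereas the sieve element genes NAC045, NAC086 and SEOa fell by 0.97, 0.55 and 0.62. The sucrose exporter gene SWEET12 had no count on SIM and 1.29, 0.382 and 0.607 CPM on CIM, at least 9.29-fold lower (adjusted p = 0.000154).

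Wound, oxygen, nutrient and growth genes were measured as further lists. RAP2.6L, an AP2 gene of tissue reunion and shoot regeneration, rose to 433, 431 and 472 CPM on SIM, against 196, 225 and 189 CPM on CIM (1.13 ± 0.109, adjusted p = 4.18e-10). In the wound list 4 of 10 passed as higher, and AT1G36060 and RRTF1, whose interval overlaps a neighbour's, passed as lower. That count of 2 became 1 without CIM replicate 1, SIM replicate 2 or SIM replicate 3 and 0 without CIM replicate 2, CIM replicate 3 or SIM replicate 1. RRTF1 also missed the threshold over the compared libraries alone without the replicate block (adjusted p = 0.12) and with it (0.0688), over cultured libraries only (0.0694), with no filter (0.0812) and with DESeq2 (0.0957), and AT1G36060 with no filter (0.0553). Low-oxygen genes rose in 8 of 13 members and fell in 1, among them HB1, a non-symbiotic haemoglobin, at 25.7, 29.3 and 33.6 CPM on SIM against 9.47, 13.2 and 12.1 CPM on CIM (1.35 ± 0.133, adjusted p = 2.89e-10). PHT1;1 and PHT1;4, phosphate transporters of the root, fell by 3.89 and 4.87, and the nitrate reductase genes NIA1 and NIA2 rose by 1.11 and 0.66. Gibberellin genes fell in 5 and rose in 2 of 11, with GA3OX2, which makes active gibberellin, at 0.927, 1.48 and 1.48 CPM on SIM against 8.76, 8.11 and 10.3 CPM on CIM (-2.75 ± 0.247, adjusted p = 3.24e-11). Alpha expansins, which loosen walls, rose in 4 of 9 members and fell in 2 (median 0.23), with EXPA8 higher by 2.59 and EXPA14 and EXPA17 lower by 4.33 and 3.96. Among the 4, EXPA10 lost its call without CIM replicate 1 or 3 or SIM replicate 2 or 3. Summed over the list, the level was 3652 to 3836 CPM on SIM and 3122 to 3309 CPM on CIM.

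Of 23 antenna and photosystem genes in low light, 1 passed as lower and none as higher, with a median of 0.14. Their sums were 388, 528 and 326 CPM on SIM and 357, 397 and 361 CPM on CIM, and replicate 2 was the highest library of both groups in most of the list. Higher calls came to 4 without SIM replicate 3 and to 8 with the replicate block over the compared libraries, and lower calls to 3 without SIM replicate 2. HEMA1, of tetrapyrrole synthesis, was the member that fell, to 26.2, 27.8 and 25.8 CPM on SIM against 38.2, 45.0 and 42.1 CPM on CIM (-0.65 ± 0.097, adjusted p = 1.03e-06). All 23 had their highest mean at T0.

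Among genes with a symbol, at least 5 CPM in the higher group and no overlap between groups, root hair and extensin genes led the rises. EXT12, an extensin, had 112, 82.9 and 157 CPM on SIM and no count on CIM, at least 1278-fold higher (adjusted p = 8.40e-09), and EXT13 had 36.2, 30.5 and 61.4 CPM and none, at least 472-fold higher. HRGP1 had 425, 367 and 572 CPM on SIM and 0, 0 and 0.835 CPM on CIM (10.34 ± 0.557, adjusted p = 1.80e-13). EXT6 and PRP3 had 1 count each on CIM, beside 105, 84.0 and 172 CPM and 87.6, 76.9 and 141 CPM on SIM. Extensins share repeated stretches, so reads may be split among them. CYP82F1, a cytochrome P450 gene, had 15.4, 18.3 and 18.1 CPM on SIM and none on CIM, at least 189-fold higher (adjusted p = 2.36e-16), and unlike the hair genes its highest SIM library was not replicate 3. RHS14 was at least 178-fold higher, and RHS12, RHS18 and EXPA18 complete the 10 largest such rises.

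The largest falls by the same rule were of genes nearly silent on SIM. PAP23, a purple acid phosphatase gene, had no count on SIM and 5.49, 5.54 and 5.16 CPM on CIM, at least 69.9-fold lower (adjusted p = 2.63e-11). AOX1B, an alternative oxidase gene of mitochondria, had 0.348, 1.34 and 0.387 CPM on SIM and 95.5, 109 and 110 CPM on CIM (-7.13 ± 0.177, adjusted p = 9.52e-21). RBK2, a receptor-like kinase gene, had 0.463, 0.268 and 0.967 CPM on SIM and 52.6, 63.2 and 58.5 CPM on CIM (-6.60 ± 0.241, adjusted p = 3.73e-19). That the SIM and CIM libraries of these genes do not overlap was set by the rule. SRS4, ELP, NIG1, CYP77B1, BXL3 and CHX17 fell by 5.59 to 6.32, and PUCHI, given above, completes the 10. ELP had been at 1059.1 CPM before culture, 29.9 CPM at CIM 4 days and 0.392 CPM at SIM 4 days, while AOX1B and PAP23 were at 0.0531 CPM and 0 CPM at T0.

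The same change of medium in Col-0 high light, in 6 libraries that share none with the low-light comparison, was fitted in the same model. The change differed between the lights in 289 of 20842 genes (1.39%), with low light minus high light above 0 in 83 (0.398%) and below 0 in 206 (0.988%). With replicate number as a block this count was 520 over all libraries and 1149 over those compared. The count also moved with single libraries, and was 149 without SIM low-light replicate 3, 156 without SIM high-light replicate 1, and 163, 178, 168 and 188 without CIM high-light replicates 3 and 2 and CIM low-light replicates 2 and 3. Of 480 tested list genes, 13 were among them. UGT84A2, a glucosyltransferase of sinapate and phenylpropanoid metabolism, fell in low light to 1.21 ± 0.0574 CPM on SIM, against 21.5 ± 1.11 CPM on CIM (SD, n = 3), and less in high light, 32.4 ± 3.16 against 62.3 ± 1.29 CPM (difference of log2 fold changes -3.19 ± 0.195 SE, adjusted p = 8.34e-13). TT5, the chalcone isomerase of flavonoid synthesis, went in opposite directions, with 2.04 CPM on SIM against 4.15 CPM on CIM in low light, and 70.6 ± 4.48 against 25.9 ± 2.86 CPM in high light (-2.58 ± 0.247, adjusted p = 5.11e-08). TT7, a flavonoid hydroxylase, did not pass in low light and rose by 2.63 in high light (difference -3.40 ± 0.514, adjusted p = 0.000207). The flavonoid genes were low in both low-light groups.

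Among the list genes that differed, GH3.2 and GH3.3 fell less in low light, by 1.16 and 0.91, than in high light, by 2.4 and 2.14 (adjusted p of the difference = 0.00114 and 0.0107). CKX1 rose more in low light, 1.72 against 1.07 (adjusted p = 0.0291), and VND3 did so at 1.31 against 0.52 (0.0365). PAL1, the entry to phenylpropanoids, rose less in low light, 0.87 against 1.38 (adjusted p = 0.00762). LAX3 and EXPA17 fell more in low light, by 1.98 and 3.96, against 1.18 and 2.87 in high light (adjusted p = 0.00213 and 0.0207). GH3.17, BFN1, ABCG2, ACL5, CDKB2;2 and MYB3R4 differed by 0.36 to 0.62 in size. The calls of GH3.2, GH3.3, GH3.17, LAX3 and PAL1 held whichever of the 12 libraries was left out. That of CKX1 was lost without CIM low-light replicate 2 (adjusted p = 0.113) and 6 others in turn, that of VND3 without CIM low-light replicate 3 (0.13) and 7 others, and that of EXPA17 without SIM low-light replicate 3 (0.111) and 4 others. BFN1, ACL5, ABCG2, MYB3R4 and CDKB2;2 lost theirs without 7, 8, 8, 8 and 9 libraries in turn, with an adjusted p of up to 0.0951, 0.111, 0.191, 0.16 and 0.0943. Over the libraries compared alone CKX1 (0.125), VND3 (0.0731), BFN1 (0.141), ABCG2 (0.159), CDKB2;2 (0.12) and MYB3R4 (0.13) did not pass. BFN1, ABCG2, CDKB2;2 and MYB3R4 did not pass over cultured libraries only, VND3, CDKB2;2 and MYB3R4 with no filter, ABCG2 and MYB3R4 with the other scaling, and ABCG2 (0.0656) and VND3 (0.062) with DESeq2. No type-A response regulator, shoot meristem, root-tip, callus founding or root hair wall gene was among the 13. WUS and RHS12 had no CIM count in either light, and the standard errors of their differences were 5188 and 5567. A difference in such genes could not be called, so their absence from the 13 does not show equal changes.

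**Figure D5:**
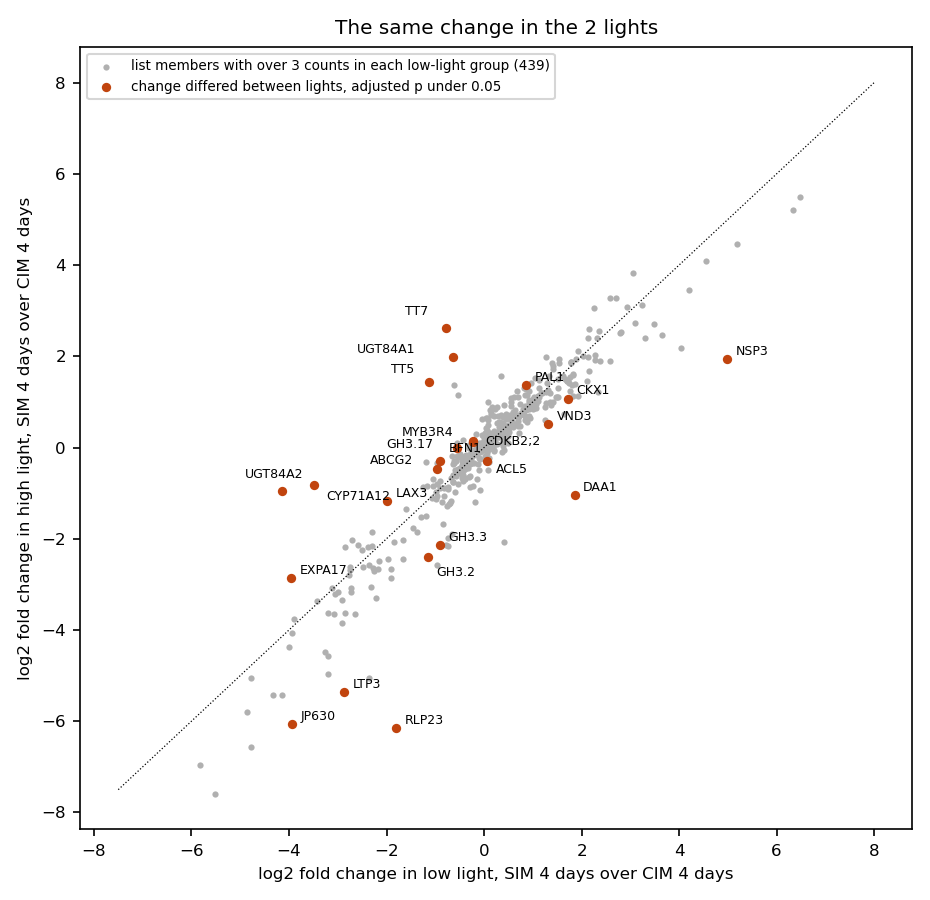
Log2 fold change, SIM 4 days over CIM 4 days, in low light (x axis) and in high light (y axis) for 439 list members with over 3 counts in each low-light group and some count in each high-light group (grey) and for 23 genes whose change differed between the lights (orange); the dotted line marks equal change. TT7 and TT5 lie above the line at negative x values, and NSP3 and DAA1 lie below it at positive x values.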

How the data were processed

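Polyadenylated RNA from Col-0 hypocotyl explants was made into libraries with a stranded kit, per the labels' protocols. The authors deposited whole-number read counts per locus for 33400 loci, of which 5138 had no count. STAR, SAMtools, bedtools, edgeR and the genome build TAIR10 are listed in the submitters' processing notes, while strand setting and multi-mapping treatment were not given in the sources used here. Each column was matched to its library by name, and no column of per-sample values was left over.

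From the deposited counts, TMM-scaled CPM were computed, and edgeR 4.0.16 (R 4.3.3, limma 3.58.1) was used to fit quasi-likelihood models, each group having its own term, to the 33 libraries over 20842 genes that passed filterByExpr (minimum count 10, minimum total 15). P-values were adjusted by Benjamini-Hochberg over these genes at 0.05, and the standard error of a log2 fold change was its size over the square root of F. DESeq2 1.42.0 and other scalings, filters, library sets and left-out libraries were alternatives. The common coefficient of variation between replicates was 7.45%. Labels do not say that replicates came from separate cultures, so p-values measure the spread between these libraries. A group with no count was given a floor of 3 counts over the group.

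Same-numbered SIM and CIM libraries in low light deviated together from their group means, with correlations of 0.222, 0.174 and 0.123, against -0.183 to 0.013 between other numbers. Deviations from a mean of 3 libraries cancel out, so higher values for the same number go with lower ones for others. The labels number the replicates and do not say that the numbers pair libraries. The reported calls come from the fit with no replicate term, and the fit with one as a block was an alternative. Of the 9143 low-light calls, 9135 also passed with the block over all libraries.

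The gene lists and members were chosen with earlier results of these data known. Named genes were the 10 largest rises and falls with a symbol, at least 5 CPM in the higher group and no overlap between groups, then up to 4 members per list and direction by adjusted p, the members of core lists, and the 5 largest differences between lights in each direction. Names came from RefSeq TAIR10.1, where 32835 loci matched by locus tag, and 4302 loci overlap a neighbour's interval. Promoter windows ran from 250 bases before to 50 after the RefSeq gene start. Some members of the lists are not reported here by name.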

Additional observations from a re-analysis of the deposited data

Results flagged for a closer look

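The change of medium differed between low and high light in 23 named genes, by an edgeR contrast of the 2 changes in libraries that the lights do not share, adjusted by Benjamini-Hochberg over 20842 genes. Differences are on the log2 scale, low light minus high light.

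Genes with more positive changes in low light were led by RLP23, an immune receptor-like protein, at 4.34 ± 0.953 SE (adjusted p = 0.0121). It had 0.463, 0 and 0.322 CPM on SIM and 0.701, 0.954 and 0.835 CPM on CIM in low light, and 0.0536 ± 0.0475 CPM on SIM and 5.49 ± 0.64 CPM on CIM in high light (SD, n = 3). Its interval overlaps a neighbour's, and the call was lost without SIM low-light replicate 1 (adjusted p = 0.0856) or 3 (0.177). NSP3, a nitrile-specifier protein of glucosinolate breakdown, differed by 3.04 (adjusted p = 0.0121) and rose more in low light, with 7.88, 6.91 and 15.3 CPM on SIM against 0.467, 0.286 and 0.228 CPM on CIM. That call was lost without CIM low-light replicate 3 (0.0653) or CIM high-light replicates 1 (0.0654) or 2 (0.0547), and over the libraries compared alone (0.112). DAA1, an AAA-type ATPase gene, differed by 2.91 (adjusted p = 0.00444), rising in low light by 1.86 and falling in high light by 1.05. LTP3, a lipid transfer protein, differed by 2.50 (adjusted p = 0.0165), with 28.0, 30.5 and 93.9 CPM on SIM and 325, 393 and 414 CPM on CIM in low light. Without SIM low-light replicate 3, its highest SIM library, the difference was 1.67 (adjusted p = 0.0948), and the call was also lost without SIM high-light replicate 1 (0.0555) and over the libraries compared alone (0.123). JP630 differed by 2.13 (adjusted p = 0.00175) and fell in both lights.

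Those with more negative changes in low light included several flavonoid and phenylpropanoid genes. TT7 differed by -3.40, UGT84A2 by -3.19 and TT5 by -2.58, as described above. UGT84A1, a close relative of UGT84A2 whose interval overlaps a neighbour's, differed by -2.63 (adjusted p = 0.00213), with 1.04, 0.671 and 1.22 CPM on SIM and 1.99, 0.859 and 1.75 CPM on CIM in low light. In high light it had 5.5 ± 0.134 CPM on SIM and 1.39 ± 0.429 CPM on CIM. CYP71A12, a cytochrome P450 of indole defence compounds, differed by -2.66 (adjusted p = 0.00175), falling by 3.49 in low light.

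The 13 list genes had smaller differences. Positive were GH3.2 at 1.24, GH3.3 at 1.23, VND3 at 0.80, CKX1 at 0.64 and ACL5 at 0.36. Negative were EXPA17 at -1.09, LAX3 at -0.81, BFN1 at -0.62, GH3.17 at -0.53, PAL1 at -0.51, ABCG2 at -0.51, CDKB2;2 at -0.36 and MYB3R4 at -0.36.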

How the results depend on the processing

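The count of 9143 genes that changed in low light was between 8251 and 10335 under the other scaling, filter, library sets, tool and the replicate block, and between 7957 and 8615 with 1 library left out, with 3863 to 4256 higher and 4094 to 4359 lower. No call shared with an alternative changed sign. The count of genes whose change differed between the lights was less stable. It was 289, and 520 with the replicate block over all libraries (165 above 0 and 355 below) and 1149 with the block over the libraries compared (462 above and 687 below), and the cause was not tested. With 1 of the 12 libraries left out it was 149 to 322, with 39 to 98 above 0 and 110 to 234 below. Same-numbered libraries correlated at 0.231, 0.27 and 0.232 between low-light and high-light SIM, at 0.16, 0.131 and 0.095 between low-light and high-light CIM, and at 0.253, 0.22 and 0.087 between high-light SIM and CIM. All of these lay above the correlations between other numbers, which reached at most 0.068, for high-light SIM replicate 2 and CIM replicate 3. The count of 289 uses no replicate term, and the counts with the block are larger. Of the 23 light differences flagged above, 8 were lost over the libraries compared alone, 4 over cultured libraries only, 3 with no filter, 2 with the other scaling and 2 with DESeq2. The block over all libraries lost none of them. Over the libraries compared, NSP3, LTP3 and BFN1 missed the threshold without the block (adjusted p = 0.112, 0.123 and 0.141) and with it (0.0792, 0.0524 and 0.0981). In the low-light comparison the block over all libraries changed the calls of GATA23 and HAM1 among named genes. Over the libraries compared the block also changed that of PLT5, whereas AT3G24240 and RRTF1 changed there with or without it. Of the fold changes of named genes, 1522 of those with 1 library left out kept their side of the threshold, 40 lost it and 10 gained it. Genes under 1 CPM rest on few counts, and a difference there may not be detectable at this depth.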

Other observations

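Gene families picked by names in the annotation, after their values were seen, also differed between SIM and CIM in low light. Members of the lists were not left out, so genes given above, such as KCS1, KCS2 and KCS20, count again here. Of 43 tested histone genes, 30 (69.8%) passed as lower on SIM and none as higher, with a median log2 fold change of -0.42. Ribosomal protein genes fell in 132 of 323 (40.9%) and rose in 6 (1.86%), with a median of -0.20. Genes for 3-ketoacyl-CoA synthases, which lengthen fatty acids, fell in 11 of 17 (64.7%) and rose in none, with a median of -1.60. Dirigent-like genes, whose proteins steer the coupling of phenolic radicals, rose in 13 of 19 and fell in 2, with a median of 1.29. Peroxidase genes were split, with 27 of 54 higher and 19 lower, and so were xyloglucan endotransglucosylases, with 12 of 22 higher and 7 lower. Berberine bridge family genes fell in 9 of 18 and rose in 2. Across all genes, 21.5% were higher and 22.3% lower.

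In share of the library, the glycine-rich protein gene GRP9 gained the most, with 5561.8, 6077.3 and 5197.7 CPM on SIM and 1776.3, 1639.8 and 1670.4 CPM on CIM (1.73 ± 0.098 SE, edgeR adjusted p = 4.51e-16), after 6.65 CPM at T0. AT2G05510, also of a glycine-rich family, had 4037.2, 3852.2 and 3615.4 CPM on SIM and 1130.4, 836 and 973 CPM on CIM. GLT1, a glutamate synthase of nitrogen assimilation, had 1894.4, 1848.5 and 1917.4 CPM on SIM and 1060.2, 924 and 976 CPM on CIM. CYP81F4, a cytochrome P450 of indole glucosinolates, had 1105.5, 982 and 975 CPM on SIM and 84.8, 80 and 103 CPM on CIM, and AT4G37409, whose interval overlaps it, has the same values in all 6 libraries. CYP81F4 rose more in low light, by 3.51 against 2.87 in high light (edgeR adjusted p of the difference = 0.0206). The largest loss was that of AT4G15160, of the lipid-transfer protein superfamily, with 230, 369 and 271 CPM on SIM and 4509.2, 5416.8 and 5338 CPM on CIM, after 1.06 CPM at T0. CDEF1, a cutinase, had 48, 108 and 70.4 CPM on SIM and 1980.1, 2192.9 and 2247.6 CPM on CIM. AZI1, a gene of systemic defence, had 52, 76.9 and 42.3 CPM on SIM and 1196.7, 1314.7 and 1032.9 CPM on CIM. These genes were picked for the size of their change in CPM, a choice that favours groups that do not overlap. No SIM library overlapped a CIM library in them, beside 25.4% of all genes apart with SIM higher and 26.3% with SIM lower.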
